A study of Caenorhabditis elegans with 2 samples.

Results

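The genes described here encode the subunits of the proteasome, the protease that degrades ubiquitin-tagged proteins, and the question was where at these genes a tagged chromatin-associated protein was found in the nematode Caenorhabditis elegans. The members were all protein-coding genes whose symbols begin with pas-, pbs-, rpn- or rpt- in the Ensembl annotation of assembly WBcel235, which gave 33 of 19973 protein-coding genes. The pas and pbs genes, 14 in all, encode the core particle, and the 19 rpn and rpt genes encode the regulatory particle. The rule uses symbols alone, although the family was chosen with earlier results of these data known.

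The samples form 1 group of 2 biological replicates. Worms of strain RW12180 carried st12180, a CRISPR insertion of TY1, EGFP and 3xFLAG tags into dox-1, a gene also written dxbp-1 in the labels. The animals were young adults aged 66 hours, from cultures synchronised by bleaching and L1 starvation, and an antibody against GFP recovered the tagged protein from sonicated chromatin of 200 to 800 bp. Both replicates share this 1 strain, and no second genotype or condition is in the labels, so no test between groups was possible. Whole animals mix all tissues, so strong binding in few cells and weak binding in many cannot be told apart. The possible control experiment named in the labels is not analysed here, so whether any peak also appears in animals without the tag was not tested.

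The core particle is a barrel of stacked rings. Its outer rings, of alpha subunits (pas genes), form the gate, and its inner rings, of beta subunits (pbs genes), hold the catalytic sites. The regulatory particle sits on the gate. Its base unfolds substrates with a ring of ATPases (rpt genes), and its lid, of rpn subunits, cuts off the ubiquitin chain. The subunits of a complex are present in set proportions. In this worm the transcription factor SKN-1A raises transcription of their genes when the proteasome is impaired.

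A gene was counted as bound when the summit of a peak lay from 1000 bp upstream to 200 bp downstream of any of its transcript starts. In the conservative peak set, called by the authors from both samples and held to a threshold on reproducibility, 15 of the 33 proteasome genes were bound (45.5%, Wilson 95% interval 29.8 to 62). Over all protein-coding genes the same rule called 2184 of 19973, or 10.9%. The regulatory particle had 10 of 19 genes bound (52.6%, interval 31.7 to 72.7) and the core particle 5 of 14 (35.7%, interval 16.3 to 61.2). These intervals overlap widely, they cover counting error only, and genes are not independent replicates. Each sample also has its own list held to a threshold on reproducibility. In that of replicate 2, 2 core genes were bound, and in that of replicate 1, 3, against 5 with both samples. The corresponding counts over both particles were 9 and 11, where these lists called 10.3% and 10.2% of all protein-coding genes. The core count and the total were thus lower in either list, while the share over all genes changed little.

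By place in the complex the counts ran from 1 gene in a ring to 7 in the lid. In the lid 7 of 9 genes were bound, and among the other rpn subunits, which belong to the base, 2 of 4. The beta ring had 4 of 7 bound genes. In the alpha ring pas-3 was the single bound gene of 7, and in the ATPase ring rpt-4 was the single one of 6. Together, 9 of the 13 rpn genes were bound (69.2%). With so few genes per ring the intervals remain wide, from 45.3 to 93.7% for the lid, from 2.57 to 51.3% for the alpha ring and from 3.01 to 56.4% for the ATPase ring. The counts also moved with the peak list and rule. In the lists of single samples the beta ring had 2 bound genes in replicate 1 and 1 in replicate 2, and the lid 6 and 5. In the larger set from both samples the alpha ring had 2 and the lid 8. Counting the nearest start only, the alpha and ATPase rings each had 0.

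**Figure D1:**
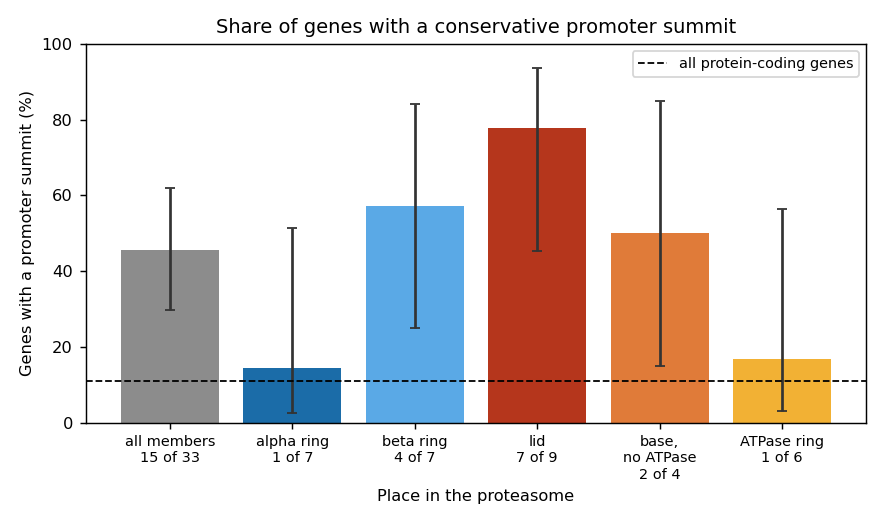
Share of proteasome genes with a promoter summit in the conservative set (percent, y axis), for all members and by place in the complex (x axis). Bars are shares, error bars are Wilson 95% intervals, and the dashed line is the share of all protein-coding genes, 10.9%; the lid bar stands at 77.8% and the alpha and ATPase ring bars at 14.3% and 16.7%.

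The peak with the highest signal lay at rpn-11, which encodes the deubiquitinase of the lid. Signal here is the authors' own value per peak, with no stated scaling between samples, and the value per replicate is that of the strongest summit in the promoter window in that replicate's ranked list. At rpn-11 (WBGene00004467, II:4043055-4044546, minus strand) the signal was 249 in replicate 1 and 281 in replicate 2, a mean of 265 ± 22.3 (SD, n = 2). The summits lay 18 bp downstream of a start in replicate 1 and 8 bp upstream in replicate 2, close to the 5' end of the gene in both. In the conservative set the peak ranked 361 of 3291, with a signal of 534.

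The next strongest peaks stood at rpn-2, a scaffold of the base, and at rpn-9 and rpn-3, subunits of the lid frame. The signal at rpn-2 (III:6199184-6202594, plus strand) was 219 in replicate 1 and 266 in replicate 2, a mean of 242 ± 33.4 (SD, n = 2). At rpn-9 (II:11237447-11238919, minus strand) it was 220.2 and 239, a mean of 229 ± 13.1 (SD, n = 2). At rpn-3 (III:8447353-8449346, plus strand) it was 175 and 270.1, a mean of 223 ± 67.0 (SD, n = 2). All of these 3 genes, like rpn-11, were higher in replicate 2. At rpn-3 the values belong to different summits: the conservative set has a pair of summits there, at -227 bp with a signal of 404 and at -476 bp with 383, and the higher one was at -472 bp in replicate 1 and at -232 bp in replicate 2. With rpn-11 these genes held ranks 361 to 691 of 3291 in the conservative set. The median signal of that set was 255.6, and 8 of the 15 bound members were under it. Over all 2184 bound genes 1358 were at or above that median, against 7 of the 15 members.

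Members on the chromosome that carries dox-1 were left out of the sequence display. Among them pas-3 (mean 145) and pbs-7 (mean 130) were above rpn-6.1 and rpn-1 in mean signal. Of the other bound members, the 6 with the highest mean signal were chosen by rule for display of the sequence around the summit. Each is read from the plus strand of the RefSeq WBcel235 genome from 50 bp before to 50 bp after the conservative summit, left out where it falls inside a protein-coding transcript. Capitals mark GTCAT or ATCAT on either strand, letters within the known SKN-1 binding site. The sequence at rpn-11 is chrII:4044547-4044579, upstream of the start and beside the summit. Those at rpn-2, rpn-9, rpn-3 and rpn-1 are chrIII:6198786-6198886, chrII:11239126-11239226, chrIII:8447076-8447176 and chrIV:6910216-6910316. At rpn-6.1 the whole window lies inside a transcript and is not shown.
rpn-11: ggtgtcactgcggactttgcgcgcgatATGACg
rpn-2: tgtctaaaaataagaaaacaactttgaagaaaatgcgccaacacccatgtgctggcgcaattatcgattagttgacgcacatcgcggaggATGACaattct
rpn-9: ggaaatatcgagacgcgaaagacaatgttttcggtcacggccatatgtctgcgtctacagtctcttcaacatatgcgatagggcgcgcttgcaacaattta
rpn-3: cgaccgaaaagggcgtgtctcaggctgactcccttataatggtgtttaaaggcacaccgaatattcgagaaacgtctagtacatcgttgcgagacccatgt
rpn-1: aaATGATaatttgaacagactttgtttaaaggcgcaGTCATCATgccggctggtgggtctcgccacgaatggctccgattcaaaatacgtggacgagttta

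The letters GTCAT, on either strand within 50 bp of the summit, were present at 6 of the 15 bound members (40%), which are rpn-11, rpn-2, rpn-1, rpt-4, pbs-1 and pbs-7. Over all 1821 promoter summits of the conservative set the share was 12.6%, and over all 3291 summits 12.5%. ATCAT was present at 3 members (20%, against 13.1% of promoter summits), and the 2 words can overlap, as at rpn-1. Along the plus strand, the centre of GTCAT lay 4 bp from the summit at rpt-4, -12 bp at rpn-1, and -12 bp and 47 bp at rpn-11, which has a pair of matches. It lay -39 bp away at pbs-1, 40 bp at pbs-7 and 42 bp at rpn-2. The heat shock element GAANNTTC was present at 2 members, rpn-3 and rpn-6.1 (13.3%, against 5.44% of promoter summits). The GATA word TGATAA, which can overlap ATCAT, was found at rpn-1 alone (6.67%, against 8.40%), and the E-box CACGTG at none, against 3.40%. Median GC content of these windows was 45.5% at members and 47.5% at all promoter summits. These matches describe letters and were not tested as sites of any factor.

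The ranked list of replicate 2, which holds weak peaks as well, had a summit in the promoter window of every member, so the same words could be read at bound and unbound genes alike. GTCAT was within 50 bp of the strongest summit at 7 of the 15 bound and 5 of the 18 unbound members. That is 12 of 33 (36.4%), against 15.1% over the 10639 protein-coding genes with a summit in that list. The unbound members with it were pas-5, pas-6, rpn-7, rpn-12 and rpt-1. ATCAT ran the other way between bound and unbound members, at 3 of 15 and 7 of 18, or 30.3% of all 33 against 20.7% of genes. GAANNTTC was at 2 bound and 3 unbound members (15.2% against 5.61%). The TGATAA and CACGTG words were at none of the 33 members, against 11.7% and 2.65% of those genes.

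Other bound genes of the regulatory particle had lower signals than the 4 strongest. The lid gene rpn-6.1, whose product clamps lid and core together and whose raised dose is known to increase proteasome activity and lifespan in this worm, had 137 in replicate 1 and 120.3 in replicate 2, a mean of 128 ± 11.6 (SD, n = 2). At rpn-1, a base scaffold that receives ubiquitin-carrying proteins, the signal was 138 and 106, a mean of 122 ± 22.6 (SD, n = 2). The ATPase gene rpt-4 had 85.7 and 112, a mean of 98.8 ± 18.6 (SD, n = 2).

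The last of the lid genes were close to each other. The signal at rpn-5, a lid frame gene, was 100.8 in replicate 1 and 79.2 in replicate 2, a mean of 90.0 ± 15.2 (SD, n = 2). At rpn-6.2, the paralogue of rpn-6.1, it was 97.7 and 82.1, a mean of 89.9 ± 11.0 (SD, n = 2). At rpn-8, whose product pairs with that of rpn-11, it was 83.9 and 93.7, a mean of 88.8 ± 6.91 (SD, n = 2). Their means differed by less than the SD between replicates of each.

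The bound core genes covered a narrower range than the regulatory ones. At pas-3, the bound alpha gene, the signal was 158 in replicate 1 and 133 in replicate 2, a mean of 145 ± 18.1 (SD, n = 2). At pbs-7, a beta subunit without its own catalytic site, it was 99.6 and 160.0, a mean of 130 ± 42.7 (SD, n = 2). At pbs-3, another such subunit, it was 91.0 and 142, a mean of 117 ± 36.3 (SD, n = 2). The means of pbs-7 and pbs-3 fall within the spread between their replicates.

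The core genes with the lowest bound signals were pbs-1 and pbs-6. At pbs-1, which encodes the caspase-like catalytic subunit, the signal was 84.4 and 90.7, a mean of 87.5 ± 4.46 (SD, n = 2). At pbs-6 it was 80.5 and 93.0, a mean of 86.7 ± 8.86 (SD, n = 2). These were also the 2 members in the conservative set that passed the threshold in neither replicate alone. The other catalytic genes, pbs-2 (trypsin-like) and pbs-5 (chymotrypsin-like), had no conservative promoter summit. Over the conservative set the strongest summit per bound member had a median signal of 240.1 (range 175 to 534), against 296 over all 2184 bound genes. The median was 251 over the 10 regulatory and 229 over the 5 core genes.

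**Figure D2:**
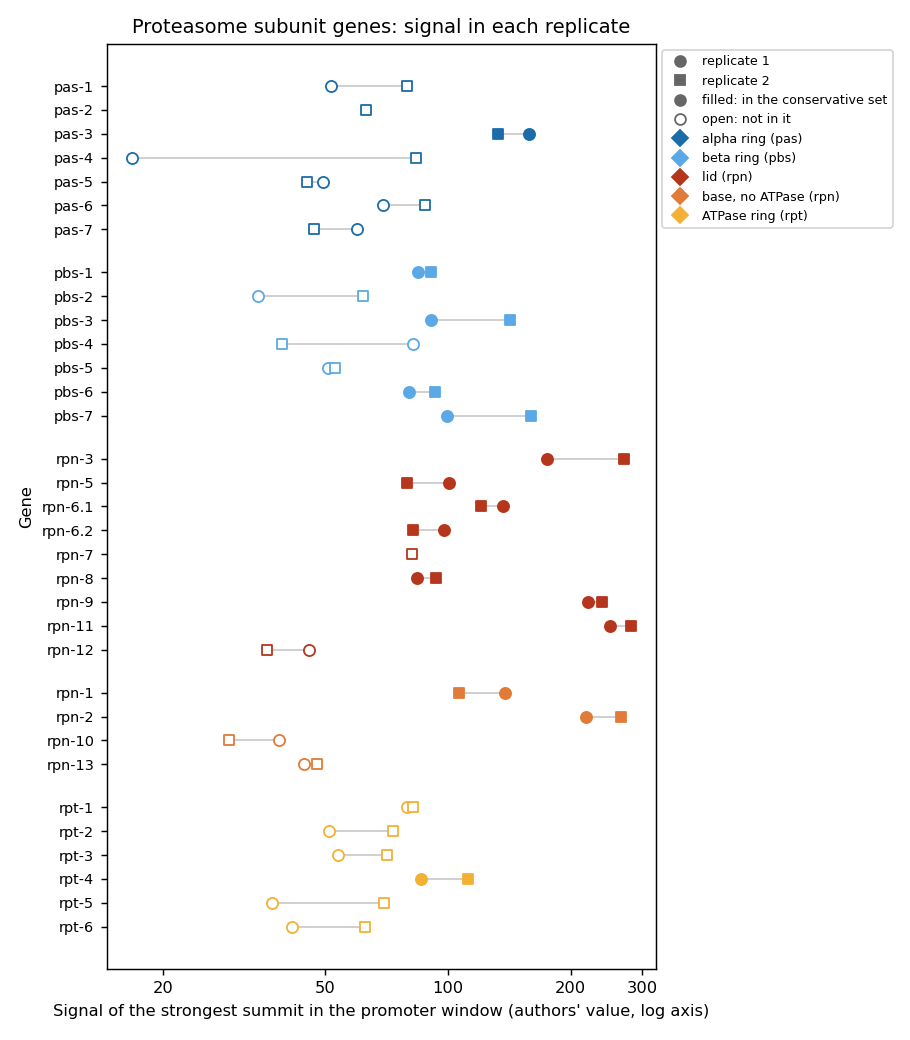
Signal of the strongest promoter summit (authors' value, log x axis) of each proteasome gene (y axis) in replicate 1 (circles) and replicate 2 (squares), grouped by place in the complex. Filled symbols are the 15 genes bound in the conservative set, all at 79.2 or above in both replicates; open symbols are the 18 others, at 16.8 to 87.9.

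The replicates ranked the members alike. Over the 31 members with a summit in both ranked lists, Spearman's rho between replicates was 0.808. Over all 7526 such protein-coding genes it was 0.762, and each correlation runs across genes that share the same 2 libraries. The 2 values of a gene can belong to different summits. At the 16 unbound members the paired summits lay a median of 244 bp apart, and only 2 pairs were within 50 bp. All 15 bound members lay within 2-fold between replicates, which the choice of reproducible peaks favours, and 29 of the 31 did so. The 2 exceptions were pas-4, with 16.8 in replicate 1 and 83.6 in replicate 2, and pbs-4, with 82.0 and 39.1. Of the bound members, 10 were higher in replicate 2 and 5 in replicate 1. Their median ratio of replicate 2 to replicate 1 was 1.12, against 0.944 over the 2152 bound genes with both values.

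**Figure D3:**
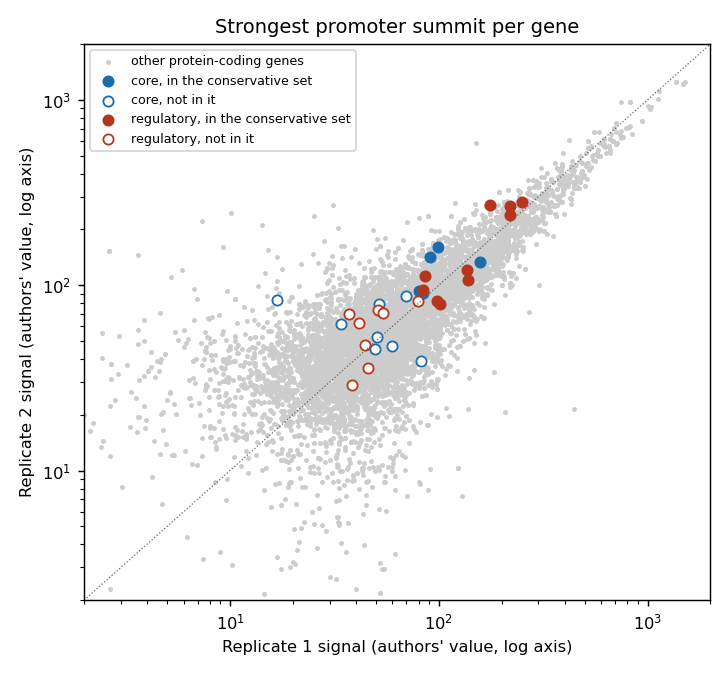
Strongest promoter summit per gene in replicate 1 (x axis) and replicate 2 (y axis), authors' signal on log axes, for core (blue) and regulatory (red) genes over the other protein-coding genes (grey; a few with a signal under 2 lie outside the axes). Filled symbols are bound in the conservative set. The dotted line marks equal signal, and 29 of the 31 members shown lie within 2-fold of it. The 2 values of a gene can belong to different summits.

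Members below the threshold were not without peaks. The ranked lists, made before any threshold on reproducibility, gave a promoter summit to 31 of the 33 members in replicate 1 and to all 33 in replicate 2. The same lists called 44.1% and 53.3% of all protein-coding genes. The 2 members with none in replicate 1 were pas-2 and rpn-7, which had 63.1 and 81.5 in replicate 2. The signal of unbound members had a median of 50.1 in replicate 1 (range 16.8 to 82.0, 16 genes) and 62.9 in replicate 2 (range 29.0 to 87.9, 18 genes). Over all genes with a summit the medians were 52.0 and 50.4. Bound members had medians of 100.8 and 120.3, against 155 and 147 over all bound genes.

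Bound and unbound members met without a gap. The lowest bound values were 80.5 at pbs-6 in replicate 1 and 79.2 at rpn-5 in replicate 2. In replicate 1, 1 of the unbound members was above the lowest bound value (pbs-4), and in replicate 2 there were 4 (pas-4, pas-6, rpn-7 and rpt-1). None was above in both. The highest mean among the unbound members with both values was at rpt-1, an ATPase gene, with 79.2 and 82.2, a mean of 80.7 ± 2.15 (SD, n = 2). These values belong to summits 173 bp apart, at 162 bp in replicate 1 and -11 bp in replicate 2. The SD at rpt-1 is therefore not a spread at 1 summit. The ubiquitin receptor genes rpn-10 and rpn-13 were among the lowest, with 38.4 and 29.0 at rpn-10 and 44.3 and 47.8 at rpn-13. The lid gene rpn-12 was similar, at 45.6 and 36.0.

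The alpha and ATPase rings had 14.3% and 16.7% of their genes bound, near the 10.9% of all protein-coding genes. In the alpha ring, beside pas-2 and pas-4 above, pas-1 had 51.6 in replicate 1 and 79.2 in replicate 2, pas-5 had 49.5 and 45.0, pas-6 had 69.4 and 87.9, and pas-7 had 60.0 and 46.9. In the ATPase ring, rpt-2 had 51.1 and 73.3, rpt-3 had 53.7 and 70.7, rpt-5 had 37.1 and 69.5, and rpt-6 had 41.5 and 62.7. All 5 unbound ATPase genes were higher in replicate 2. Of the unbound catalytic beta genes, pbs-2 had 34.1 and 62.0 and pbs-5 had 50.7 and 52.8. Over bound and unbound genes with a summit, the median signal in the lid was 119 in replicate 1 and 93.7 in replicate 2. It was 82.0 and 90.7 in the beta ring, 55.8 and 79.2 in the alpha ring, and 52.4 and 72.0 in the ATPase ring. In replicate 1 these cover 8 of 9 lid genes, without rpn-7, and 6 of 7 alpha genes, without pas-2. Counting those absent genes as lowest would lower both medians.

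The larger set from both samples called 17 members, against 13.7% of all genes. It added pas-6 (signal 133.9, ranked 4205 of 4441) and rpn-7 (signal 176) to the 15. The thresholded lists of single samples called 11 members in replicate 1 and 9 in replicate 2, against 10.2% and 10.3% of all genes. Both of them held 7 of the 15 conservative members: pas-3, pbs-7, rpn-2, rpn-3, rpn-6.1, rpn-9 and rpn-11. Over all 2184 bound genes, 67.4% were in both lists, a larger share than among the members. A further 6 members were in 1 replicate's list, namely pbs-3, rpn-1, rpn-5 and rpn-6.2 in replicate 1, and rpn-8 and rpt-4 in replicate 2. The threshold rests on the irreproducible discovery rate (IDR), the estimated share of peaks that fail to recur, and not on signal alone. In each sample's own ranked list, the IDR of the strongest summit at rpn-1 was 0.00129 in replicate 1 and 0.600 in replicate 2, and at rpn-8 it was 0.282 and 0.00711.

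Summits at bound members lay mostly upstream and close to the start. The median distance was -207 bp, against -251 bp over all bound genes. Of the 15 summits 13 were upstream, which the window, with its longer upstream side, favours (92.9% over all bound genes), and 14 lay within 500 bp of a start. The 2 downstream ones were at pbs-6, at 66 bp within its coding exon, and at rpn-11, at 17 bp within its 5' UTR. At most bound members the replicates placed the summit at nearly the same base. In the bound members the summits of the ranked lists were a median of 28 bp apart between replicates, and 13 of 15 were within 50 bp. In the unbound members with a summit in both lists the median gap was 244 bp, and 2 of 16 were within 50 bp. Over all genes the shares within 50 bp were 76.9% of bound genes and 28.4% of the others. Bound genes come from a set held to a threshold on reproducibility, so their closer replicate summits are in part built into the choice.

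**Figure D4:**
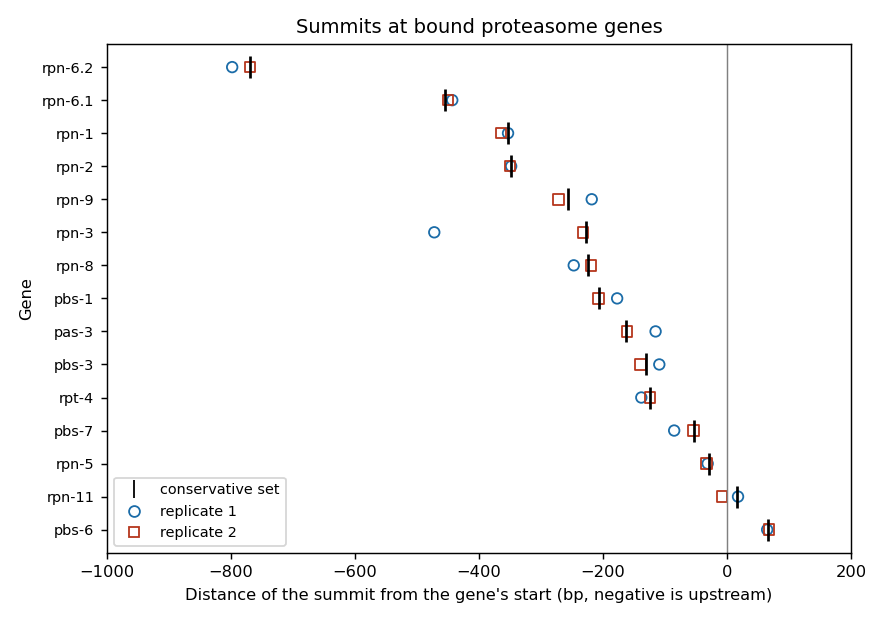
Distance of the strongest promoter summit from the start of each of the 15 bound genes (bp, x axis, negative upstream), in the conservative set (bars) and in the ranked lists of replicate 1 (circles) and replicate 2 (squares). The 3 marks lie together at most genes, and at rpn-3 replicate 1 marks a second summit 240 bp away.

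At 3 members the count depended on which transcript start was used. The summit of rpn-6.1 lay in an intron, 455 bp upstream of the start of a short transcript but 606 bp downstream of the first start of the gene (III:6959110-6962001, minus strand). At rpn-6.2 (III:8999817-9001999, minus strand) it lay in an intron 770 bp upstream of a second start and 348 bp downstream of the first. At rpt-4 (II:42207-46216, minus strand) the summit was 124 bp upstream of the start of the short transcript, 2430 bp inside the long one, and 121 bp upstream of nfyc-1, which encodes a subunit of the NF-Y transcription factor. With the first start only, these 3 were not counted and 12 members remained.

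Most proteasome summits were shared with a neighbouring gene. At 12 of the 15 bound members the strongest summit also lay in the window of another protein-coding gene, against 49% of all bound genes, and at 11 of these the other gene was the divergent neighbour, whose transcription runs away from the member. The partners include hsp-110, a chaperone gene, at rpn-3; scc-1, the cohesin gene, at rpn-5; ribo-1, a subunit gene of the enzyme that adds sugars to secreted proteins, at rpn-1; and mrps-6, of the mitochondrial ribosome, at rpn-8. At pas-3 the summit lay 6 bp into the divergent gene use-1, a SNARE gene, and 162 bp upstream of pas-3. The proteasome gene had the nearest start at 12 of the 15, and 1623 of all 2184 bound genes had the nearest start to a summit. At pas-3, rpn-3 and rpt-4 the nearest start was that of the neighbour. Such a peak cannot be given to 1 gene of the pair. Noncoding genes also lie within 500 bp of the summits at rpn-1 and rpn-3. The unshared summits were at pbs-3, rpn-6.2 and rpn-11.

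Members and all genes differed in gene order. Counted from the first start of each gene, 20 of the 33 members (60.6%) had a divergent neighbour within 1000 bp, against 17.2% of all protein-coding genes. Of these 20, 11 were bound, 55%, where the same arrangement over all genes was bound in 24.6% of cases. With a neighbour upstream on the same strand within 1000 bp, 3 of 9 members were bound (33.3%), against 8.05% of all such genes. These were pbs-3, rpn-6.2 and rpn-11. In the regulatory particle 7 of the 11 members with a close divergent neighbour and 3 of the other 8 were bound, and in the core particle 4 of 9 and 1 of 5. This grouping by gene order was chosen after the values were known, and its part in the counts was not tested.

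Some members without a promoter summit had a conservative peak just outside the window. The clearest was pas-5, an alpha ring gene, with a peak of signal 618 that ranked 258 of 3291. Its summit lay 1091 bp upstream of the start of pas-5, which was also the nearest protein-coding start. It had 332 in replicate 1 and 298 in replicate 2, a mean of 315 ± 24.0 (SD, n = 2), above every member counted as bound. Upstream of pbs-5 and rpn-10 were peaks at -1150 bp and -1333 bp, 272 bp and 91 bp from the starts of K05C4.2 and mrpl-9, their upstream neighbours on the same strand. Near rpt-6 the summit at -1427 bp was 21 bp from a start of his-72, a histone gene, and near pbs-2 a summit 1369 bp downstream was 116 bp from a start of tba-2, a tubulin gene. The other 13 unbound members had no conservative summit within 2000 bp of a start, and no conservative summit lay in the body of a member other than those counted above.

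By chromosome, 5 of 7 members were bound on II, 5 of 8 on III, 2 of 3 on IV, 3 of 10 on I and 0 of 5 on V. No member lies on X. Over all protein-coding genes the shares were 10.4% on II, 15.4% on III, 11.2% on IV, 14.8% on I and 7.19% on V. On V the members were pas-1, pas-2, pas-6, rpt-1 and rpt-2, all with peaks in at least the ranked list of replicate 2.

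Other genes of the pathway were taken from a list of 19, all in the annotation, of which 8 were bound (42.1%, against the 10.9% of all genes given above). At cdc-48.1, whose ATPase product extracts and unfolds ubiquitin-tagged proteins upstream of the proteasome, the signal was 742 in replicate 1 and 978 in replicate 2, a mean of 860.0 ± 167 (SD, n = 2), higher than at any member. The other cdc-48 gene of the list, cdc-48.2, was unbound, with 42.3 in replicate 1 and 30.1 in replicate 2. The polyubiquitin gene ubq-1 had 197 and 134.2, and ubq-2, whose product joins ubiquitin to a ribosomal protein, had 257 and 220. The gene uba-1, for the ubiquitin-activating enzyme, had 130 and 194.

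Genes for proteins that bind the proteasome, or regulate it, varied. The deubiquitinases that dock on the regulatory particle were bound, with 177 in replicate 1 and 248 in replicate 2 at ubh-4, and 121 and 140 at usp-14. The stress-response gene aip-1 had 142 and 137. At skn-1, which encodes the activator of proteasome genes, the signal was 83.3 and 80.5, a mean of 81.9 ± 1.99 (SD, n = 2), below the lowest mean of a bound member, 86.7 at pbs-6. Of the 11 unbound genes, 6 had no promoter summit in either ranked list. These were ddi-1, png-1 and sel-11, which act in the processing of SKN-1A, and psme-3, npl-4.1 and npl-4.2. Such absence is common, since the ranked lists gave a summit to only 44.1% of all protein-coding genes in replicate 1 and 53.3% in replicate 2. The gene dss-1, for a small subunit of the lid, had none in replicate 1 and 17.7 in replicate 2.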

How the data were processed

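Chromatin immunoprecipitation with an antibody against GFP was sequenced in 2 biological replicates, which form 1 group. The deposited peak lists are on build ce11, per the labels: 3291 conservative peaks and 4441 in the larger set from both samples, and for each sample a thresholded list (3105 and 2983 peaks) and a ranked list (56265 and 65301). The signal value of each peak was deposited by the authors with no stated scaling. In the ranked lists the authors also gave the IDR of each peak on a −log10 scale. Each list also derives from 1 file that both samples share, so their signals are not fully independent. Which aligner and peak caller were run is not stated in the labels or headers. Without read counts in the lists, depth per sample is unknown.

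Genes and starts came from Ensembl release 115 (WBcel235, the assembly of ce11). A summit is the peak start plus its offset, written 1-based. Window assignment was tested on simulated peaks. Every member is accounted for; sequences were printed for the 6 bound members off chromosome I with the highest mean signal, less what lay in protein-coding transcripts. Members and lists were chosen with earlier results of these data known. No test was run, since there is 1 group. Scripts ran in Python 3.11.15 with pandas 2.3.3, numpy 2.4.6, scipy 1.17.1 and matplotlib 3.10.9. Alternatives covered the peak set, signal, window, start, overlap and shared promoters.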

Additional observations from a re-analysis of the deposited data

How the results depend on the processing

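No paired analysis was possible because there is 1 group and no test. Of the 33 members, 15 were bound as reported, and 12 to 19 under the other windows, starts, overlap rule, nearest-gene rule and larger set, while the share over all genes ran from 8.13 to 14.6%. Leaving out a sample gave 9 to 11 members (10.2 to 10.3% of all genes), of which the core had 2 to 3 and the regulatory particle 7 to 8, with a median signal of 138 to 160.0, since each list then holds the signal of 1 sample. A signal at or above the median of the set left 7 members (21.2%, against 6.8% of all genes), 2 core and 5 regulatory, with a median signal of 404, because that filter removes the weaker peaks. The median distance was -184.5 bp with the narrower window (500 bp upstream to 100 bp downstream) and likewise with the first start only. The narrower window drops rpn-6.2, and the first start only drops rpn-6.1, rpn-6.2 and rpt-4. The wider window (2000 bp upstream to 500 bp downstream) gave 19 members, against 14.6% of all genes, and added pas-5, pbs-5, rpn-10 and rpt-6, and counting any overlap of the peak added pas-5 and pbs-5. Counting the nearest start only gave 12 members, against 8.13% of all genes, and dropped pas-3, rpn-3 and rpt-4. Pathway genes numbered 6 to 8 under every alternative, an addition made after the data were seen, as was the share of members bound with a divergent neighbour within 500 bp, 50%. Matching replicate peaks by overlap with the conservative peak left all 15 mean signals unchanged. At rpn-3 the conservative peak is 867 bp wide and covers both summits, so this matching could not separate them. Depth is unknown, and the number of genes limits the precision of every share.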
